A study of Mus musculus with 32 samples.

Results

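Complement components and receptors were followed in BV-2 cells, a transformed mouse line used as a stand-in for microglia, the phagocytes that live in the brain. The 9 genes were chosen by name, with earlier results of these data known. They were C1qa, C1qb, C1qc, C4b, C3, Cfb, Cfp, C3ar1 and C5ar1, of 45706 genes in the table. All 9 had a value in each of 32 libraries.

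Complement is a cascade of plasma and tissue proteins that tags targets for uptake and recruits phagocytes. The classical pathway starts when C1q, built from the chains encoded by C1qa, C1qb and C1qc, binds a target, and proceeds through C4. All pathways meet at C3, whose fragments coat the target. The alternative pathway amplifies that step with factor B (Cfb) and is stabilised by properdin (Cfp), and the small fragments C3a and C5a act through the receptors encoded by C3ar1 and C5ar1. In brain, microglia are a main source of C1q, and complement tagging of synapses for microglial uptake is a known process.

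The study asked how 3 miRNAs act in resting and activated microglia. The wild-type cells were transfected with a mimic, which is a synthetic RNA duplex standing in for a mature miRNA. The mimics were of miR-146a-5p, miR-7a-5p and miR-29a-3p, and controls received a scramble sequence. Each was combined with vehicle (VEH) and with lipopolysaccharide (LPS), the endotoxin of Gram-negative bacteria, given at 10 ng/ml for 24 h. Each of the 8 combinations had 4 libraries, numbered 1 to 4 in the labels, and the 3 mimics of a condition were compared with the same 4 scramble libraries. All groups share the transfection and the single cell line, which is a model of microglia and not the brain's own cells. The labels call the line a glioblastoma and carry a mouse age, which cannot describe a cell line, and they place LPS before the transfection where the methods of the study place it after.

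The 3 miRNAs are shown because their bases 2 to 8, the seed in capitals, set which messages they can pair with. The mature sequences, 5′ to 3′, are those of RefSeq on build GRCm38.p6, where miR-7a-5p is encoded at chr7:78888295-78888317 on the plus strand and at chr13:58392841-58392863 on the minus strand, miR-29a-3p at chr6:31062673-31062694 and miR-146a-5p at chr11:43374435-43374456, both on the minus strand.
mmu-miR-7a-5p: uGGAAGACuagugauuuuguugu
mmu-miR-29a-3p: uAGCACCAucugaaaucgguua
mmu-miR-146a-5p: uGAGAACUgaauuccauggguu
The 3 seeds differ from each other. The 7-base complement of a seed was searched in the longest annotated 3′ UTR of each complement gene (GENCODE vM21). Matches were found in the receptors alone, 1 for miR-29a in C5ar1 at bases 849 to 855 of 1295 and 1 for miR-146a in C3ar1 at bases 27 to 33 of 2685. Both are printed with their flanks, the match in capitals.
C5ar1 with miR-29a: tgagggggTGGTGCTgggcaaat
C3ar1 with miR-146a: ctaagcagAGTTCTCaggtgaac
The C3ar1 match is followed by an A, which the C5ar1 match is not. No match to any of the 3 seeds lay in the 3′ UTRs of C1qa, C1qb, C1qc, C4b, C3, Cfb and Cfp, which are short, between 43 bases in C3 and 239 in C1qc against a median of 960.5 over 21006 genes. Over those genes, 11.9% held GTCTTCC (miR-7a), 13.1% held TGGTGCT (miR-29a) and 11.2% held AGTTCTC (miR-146a). A match describes letters and not a functional site.

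All 9 genes lie on the minus strand of build GRCm38. The C1q genes are neighbours on chromosome 4, with C1qb at chr4:136880129-136886187, C1qc at chr4:136889804-136893065 and C1qa at chr4:136895917-136898803. C4b (chr17:34728380-34743882), Cfb (chr17:34856374-34862518) and C3 (chr17:57203970-57228136) share chromosome 17, and Cfp is at chrX:20925454-20931555. The receptor genes are C3ar1 at chr6:122847138-122856161 and C5ar1 at chr7:16246743-16259540. Cfb is overlapped on its own strand by Gm20547, and C4b has the close relative C4a. Reads of these genes could be divided between records. C4a held at most 4.23% of C4b plus C4a in any library, on values with lost decimal marks restored as described below. Some C4a readings were uncertain, with a posterior as low as 0.491 in VEH_scramble, under the 0.9 required for testing. No such share is given for Gm20547.

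Values are in CPM, a gene's counts scaled to a library of 1000000, and were computed from estimated counts whose lost decimal marks were restored and scaled by TMM, a method that corrects for library composition. Library totals ran from 1234700 to 22277000 counts. The microglia and macrophage markers together reached 3333 to 6318 CPM in every library, although Cx3cr1, Tmem119 and P2ry12, which define brain microglia, were low (medians 0.645, 2.90 and 5.27 CPM). Markers of astrocytes summed to 0 to 1.93 CPM, of neurons to 0 to 3.22, of fibroblasts to 0 to 1.49 and of oligodendrocytes to 1.74 to 19.1. The summed microglia and macrophage markers were lower in LPS_miR-29a, at 3333 to 4188 CPM, than in VEH_miR-29a, at 4656 to 4906, and LPS_scramble, at 4290 to 5064, and the part of this in the miR-29a values was not tested. Libraries 2 to 4 of VEH_miR-7a stood apart, with 33.95 to 37.98% of counts from small structural RNA genes against 2.52 to 18.2% in all other libraries and totals of only 1234700 to 2535000 counts. As a check of the LPS labels, Nos2 (inducible nitric oxide synthase) was at 45.3 to 83.0 CPM in LPS_scramble and at 1.16 to 13.2 in VEH_scramble, and Il1b at 3.85 to 13.1 and 0 to 1.31. Nos2 was called higher under LPS with scramble, miR-7a and miR-29a but not with miR-146a (adjusted p = 0.0529, limma), and Il1b with scramble and miR-29a but not with miR-7a (0.159) or miR-146a (0.238). The groups overlapped for Nos2 with miR-7a, at 0.942 to 25.99 CPM under vehicle and 19.9 to 66.6 under LPS, and in no other of these pairs.

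With scramble under vehicle, the levels per kilobase of exon were highest for C1qb, at 85.9 ± 6.70 CPM per kb (SD, n = 4). C3 followed at 42.3 ± 15.97 and C3ar1 at 33.7 ± 13.2, then C1qc at 17.1 ± 4.57 and C4b at 14.2 ± 8.44, all in CPM per kb. Cfp (3.85 ± 1.11) and C5ar1 (2.25 ± 0.521) were low, and Cfb (0.136 ± 0.109) and C1qa (0.132 ± 0.105) near 0 on the same scale. C3 and C3ar1 lay within their spread of each other, as did C1qc and C4b, and Cfb and C1qa. Under LPS with scramble C3 led at 234 ± 29.7 CPM per kb, above C1qb at 108 ± 35.1. C3ar1 (48.7 ± 18.6) and Cfb (37.2 ± 5.81) came next and lay within their spread of each other, as did C4b (25.1 ± 6.57) and C1qc (24.6 ± 12.1). C5ar1 was at 4.67 ± 1.02, Cfp at 2.20 ± 0.453 and C1qa at 1.04 ± 0.587 CPM per kb.

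**Figure D1:**
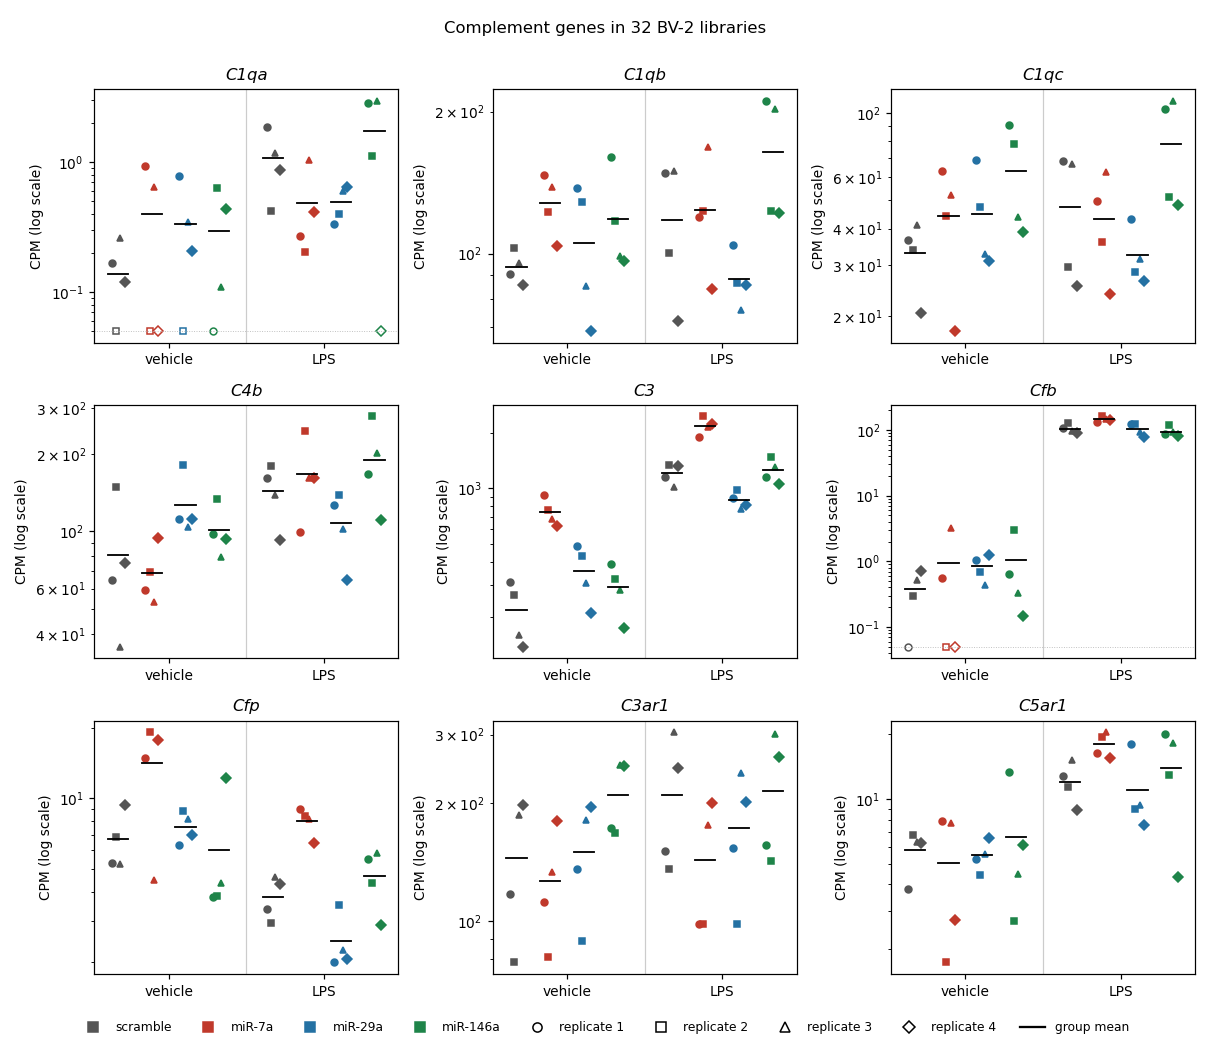
CPM (log axis) of the 9 complement genes in each of the 32 libraries, 1 panel per gene. Colours stand for the mimic, marker shapes for the replicate number of the labels and bars for group means, and open symbols on the dotted line in the C1qa and Cfb panels are libraries listed at 0. Cfb moves from at most 3.22 CPM in all vehicle libraries to between 78.1 and 161 CPM in all LPS libraries, and C3 is higher in LPS than in vehicle libraries within each mimic.

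C3 and Cfb were higher under LPS with each of the 3 mimics and with scramble, while C1qb, C1qc and C3ar1 passed the main test with none and C1qa was too low to be tested. A fit that pairs libraries of the same replicate number called C3ar1 with scramble and C1qc with miR-29a. A gene was called when its adjusted p (limma voom, Benjamini-Hochberg over all genes tested) was under 0.05 and its log2 fold change exceeded 0.3 in size. Of 32 gene and mimic pairs that could be tested, of 36 possible, 12 were called, 11 of them higher and 1 lower. With scramble 3 of the 8 members tested were called higher, against 9.15% of all genes tested called higher and 8.04% lower. With miR-7a 4 of 8 were higher, against 2.67% higher and 3.69% lower over all genes, and with miR-146a 2 of 8, against 2.47% and 1.27%. With miR-29a 2 of 8 were higher and 1 lower, against 12.8% of all genes higher and 12.8% lower. Because the genes were chosen with earlier results known, these shares are a description and not a test. In bulk RNA, fewer cells that express a gene and less RNA per cell cannot be told apart.

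C3 encodes the protein on which all complement pathways meet. In VEH_scramble its 4 libraries held 310.0, 263, 159 and 138 CPM, and in LPS_scramble 1142, 1330.0, 1014 and 1324. The groups did not overlap. The rise was 5.70-fold (log2 2.51 ± 0.26, SE; adjusted p = 0.000258). With miR-29a, C3 stood at 483, 431, 305 and 212 CPM under vehicle and at 889, 972, 773 and 814 under LPS. That rise was 2.46-fold (log2 1.30 ± 0.24, adjusted p = 0.00307), without overlap. With miR-146a the libraries held 389.9, 321, 279 and 174 CPM under vehicle and 1155, 1475, 1305 and 1049 under LPS. The groups were again apart, and the rise was 4.42-fold (log2 2.14 ± 0.22, adjusted p = 0.000823). With miR-7a, C3 was already high under vehicle, at 919, 759.7, 684 and 625 CPM, and reached 1893, 2442, 2141 and 2233 under LPS. Its rise was 2.88-fold (log2 1.52 ± 0.14, adjusted p = 0.000292). None of the 8 single libraries of each comparison, left out in turn, ended a C3 call. Without the 3 VEH_miR-7a libraries rich in structural RNA, C3 with miR-7a was at log2 1.23. This rests on 1 vehicle library, so it cannot test the call.

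Cfb encodes factor B, the protease subunit of the alternative pathway convertase. In vehicle cells it was almost absent, with 0, 0.297, 0.524 and 0.719 CPM in VEH_scramble, and 11 of the 16 vehicle libraries held 3 counts or fewer. Under LPS with scramble it stood at 106, 127, 97.7 and 89.3 CPM. With miR-7a it moved from 0.565, 0, 3.22 and 0 CPM to 130.2, 161, 147 and 140.5, and with miR-29a from 1.05, 0.679, 0.444 and 1.25 to 125, 125, 92.1 and 78.1. With miR-146a the vehicle libraries held 0.632, 3.03, 0.328 and 0.145 CPM and the LPS libraries 87.1, 117, 92.5 and 80.5. No vehicle library reached any LPS library. The fitted rises were 277-fold with scramble (adjusted p = 2.4e-05), 143-fold with miR-146a (adjusted p = 0.000474), 162-fold with miR-7a (adjusted p = 4.05e-05) and 109-fold with miR-29a (adjusted p = 1.19e-05), and none of these 4 calls was lost when a library was left out. Their log2 values were 8.11 ± 0.55, 7.16 ± 0.68, 7.34 ± 0.53 and 6.76 ± 0.46 (SE) in the same order. Since the vehicle counts are so few, the size of these folds depends on the small offset the fit adds, and their order across mimics is not a result.

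Cfp encodes properdin, which stabilises the alternative pathway convertase. With miR-29a it fell under LPS, from 6.32, 8.82, 8.16 and 6.999 CPM to 2.00, 3.52, 2.27 and 2.08. The groups did not overlap, and Cfp decreased by 1.58 on the log2 scale (SE 0.25, a 2.99-fold fall; adjusted p = 0.00165), with each library left out in turn as well. With scramble the libraries also did not overlap, at 5.32, 6.82, 5.24 and 9.35 CPM under vehicle and 3.37, 2.94, 4.61 and 4.33 under LPS, but the test was not passed (log2 -0.82 ± 0.27, adjusted p = 0.0581). Without VEH_scramble replicate 1 it was (adjusted p = 0.0396; 0.0396 to 0.210 over the alternatives, where this and each later range covers those run on restored values). With miR-7a, Cfp counts were few in 3 of the vehicle libraries, and the log2 difference was -0.70 ± 0.34 (adjusted p = 0.283), or -1.07 without VEH_miR-7a replicate 3 (adjusted p = 0.0485; 0.0485 to 0.663 over the alternatives). With miR-146a the difference was -0.23 ± 0.40 (adjusted p = 0.820).

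**Figure D2:**
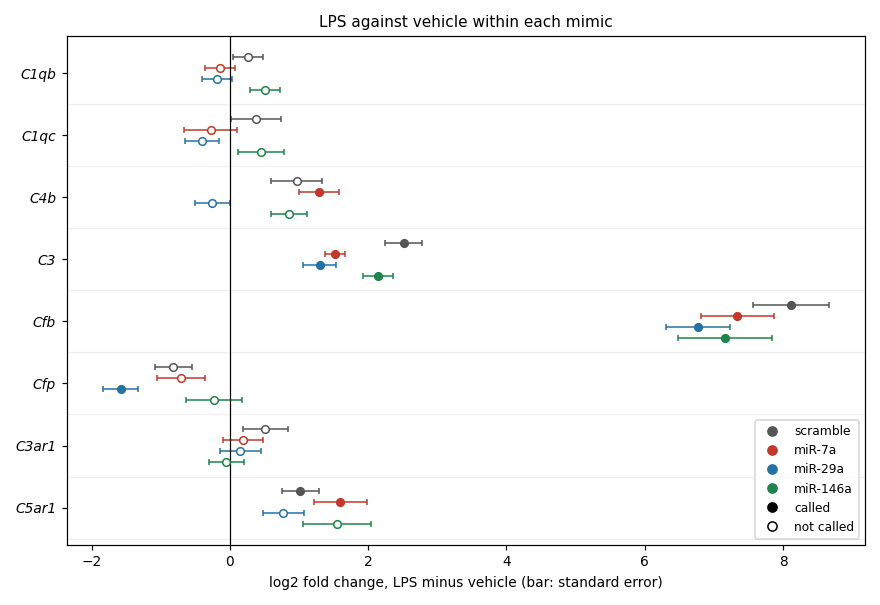
Log2 fold change of LPS minus vehicle for the complement genes with each mimic, points with bars of 1 SE, 4 libraries per group. Filled points passed the test and open points did not. C3 and Cfb are filled in all 4 arms, C5ar1 with scramble and miR-7a, C4b with miR-7a and Cfp with miR-29a on the lower side.

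C5ar1 encodes the receptor of C5a, a strong attractant of phagocytes. In VEH_scramble it was at 3.82, 6.82, 6.29 and 6.23 CPM and in LPS_scramble at 12.7, 11.3, 15.1 and 8.84. All 4 LPS libraries lay above all vehicle libraries, and the rise was 2.03-fold (log2 1.02 ± 0.27, adjusted p = 0.0280). The call did not hold when a library was removed in 5 of 8 cases, since leaving out VEH_scramble replicate 1, 3 or 4 or LPS_scramble replicate 1 or 3 gave adjusted p of 0.0646, 0.0574, 0.0653, 0.0540 and 0.0613. With miR-7a, vehicle libraries held 7.91, 1.74, 7.73 and 2.74 CPM and LPS libraries 16.3, 19.3, 20.4 and 15.4. They did not overlap, and the rise was 3.03-fold (log2 1.60 ± 0.39, adjusted p = 0.0351), but the vehicle replicates 2 and 4 rest on 2 counts each. This call was lost without VEH_miR-7a replicate 2, 3 or 4 (adjusted p = 0.0704, 0.0665 and 0.0721). It was also lost without LPS_miR-7a replicate 1, 2 or 3 (0.0505, 0.0793 and 0.0767). Without the 3 vehicle libraries rich in structural RNA, which leaves no vehicle replicates, the log2 difference was 1.14. With miR-29a, where C5ar1 holds the seed match printed above, 5.27, 4.41, 5.55 and 6.58 CPM under vehicle stood against 18.03, 8.95, 9.32 and 7.53 under LPS, apart but short of the main test (log2 0.78 ± 0.30, adjusted p = 0.0820). C5ar1 was called higher there by edgeR's quasi-likelihood test (log2 0.94, adjusted p = 0.0396), by DESeq2 (log2 0.94, adjusted p = 0.0176) and by limma with the replicate number as a block (log2 0.82, adjusted p = 0.0425). With miR-146a the groups overlapped, with 13.3, 2.71, 4.49 and 6.09 CPM against 19.9, 12.9, 18.2 and 4.34 (log2 1.55 ± 0.49, adjusted p = 0.119). Without LPS_miR-146a replicate 4, the lowest of its group, the adjusted p was 0.0202 (0.0110 to 0.278 over the alternatives).

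C4b encodes complement C4, cleaved when C1q binds a target. With miR-7a it stood at 59.3, 69.5, 53.4 and 94.4 CPM under vehicle and at 99.1, 245, 162 and 161 under LPS. The groups touched closely without overlap, and the rise was 2.45-fold (log2 1.29 ± 0.29, adjusted p = 0.0245). The call was lost without VEH_miR-7a replicate 1, 2 or 3 (adjusted p = 0.0709, 0.0582 and 0.0834). It was also lost without LPS_miR-7a replicate 3 or 4 (0.0591 and 0.0522). Without the 3 libraries rich in structural RNA, which leaves no vehicle replicates, the log2 difference was 1.40. With scramble, C4b ranged widely under vehicle, at 64.7, 149, 35.7 and 75.1 CPM, and lay at 161, 179, 139 and 92.5 under LPS. The log2 difference was 0.97 ± 0.36 (adjusted p = 0.0930), and 1.27 without VEH_scramble replicate 2 (adjusted p = 0.0203; 0.0203 to 0.209 over the alternatives). With miR-146a the libraries held 97.8, 133, 79.4 and 93.3 CPM under vehicle and 166, 279, 202 and 110.4 under LPS (log2 0.86 ± 0.26, adjusted p = 0.110). Without LPS_miR-146a replicate 4 the adjusted p was 0.0240 (0.00978 to 0.287 over the alternatives). With miR-29a the sign was the other way, with 112, 181, 104 and 111 CPM under vehicle and 127, 139, 102 and 65.0 under LPS (log2 -0.25 ± 0.25, adjusted p = 0.480).

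The C1q chains are the recognition unit of the classical pathway. C1qb was at 90.5, 103, 95.4 and 85.6 CPM in VEH_scramble and at 148, 100.3, 150.0 and 71.9 in LPS_scramble, so that the LPS libraries lay on both sides of the vehicle ones (log2 0.26 ± 0.22, adjusted p = 0.443). C1qc was at 36.6, 33.8, 41.1 and 20.6 CPM in VEH_scramble and at 68.5, 29.5, 66.7 and 25.3 in LPS_scramble (log2 0.38 ± 0.36, adjusted p = 0.493). Across the other mimics the log2 differences of LPS against vehicle were -0.19 to 0.51 for C1qb and -0.40 to 0.45 for C1qc, and none passed the test without pairing by number. C1qa stood at 0 to 0.942 CPM in vehicle libraries and at 0 to 2.96 in LPS libraries, a count of 0 to 1.46% of that of C1qb in the same library, and at 3 counts or fewer in 14 of 16 vehicle and 4 of 16 LPS libraries. Low counts kept it out of all comparisons of LPS with vehicle. C1q protein needs all 3 chains, and these RNA values say nothing of the protein.

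C3ar1 encodes the receptor of C3a. In VEH_scramble it was at 117, 78.3, 187 and 198 CPM and in LPS_scramble at 151, 136, 305 and 247. The groups overlapped, and the difference was log2 0.51 ± 0.33 (adjusted p = 0.306). With the other mimics the log2 differences were -0.05 to 0.19, all with overlapping groups. The paired fit called the difference with scramble (adjusted p = 0.0191, given with its range beside the replicate numbers).

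C3ar1 followed the replicate numbers of the labels. Libraries 3 and 4 lay above libraries 1 and 2 in 8 of 8 groups, and number 2 was lowest in all 8, while for the other genes the first pattern held in 0 to 2 of 8 groups. C1qc was lowest in number 4 in 8 of 8 groups, C4b highest in number 2 in 7 of 8, and C3 highest in number 1 in all 4 vehicle groups. What a number stands for is not stated in the labels. Over all comparisons 33 of 40 same-number pairs correlated best with their own number. In 4 of 10 comparisons each of the 4 pairs correlated above 0.1, and there a fit with the number as a block is given beside the main one. That cut does not show the numbers to be unrelated in the other comparisons.

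**Figure D3:**
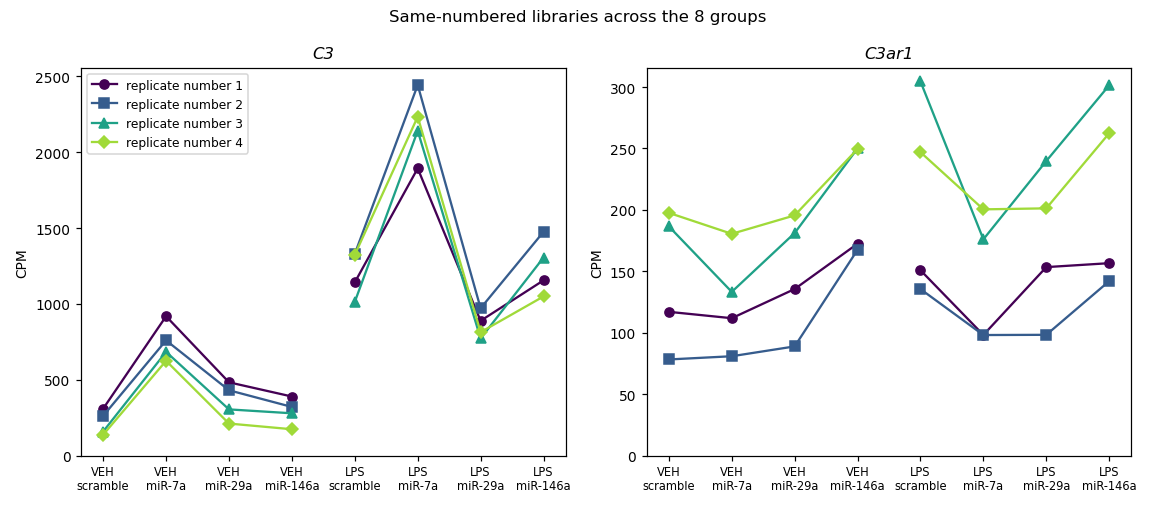
CPM of C3 and C3ar1 in the 8 groups, with lines joining libraries of the same replicate number. For C3ar1 the lines of numbers 3 and 4 lie above those of 1 and 2 in all 8 groups, whereas for C3 the step from vehicle to LPS is larger than the spread between numbers.

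Of these 4 comparisons, LPS against vehicle with scramble gave 2 more calls and 1 fewer with the block, which called 23.2% of all genes in either direction. C4b (log2 0.93, adjusted p = 0.0393; 0.0203 to 0.209 over the alternatives) and C3ar1 (log2 0.53, adjusted p = 0.0191; 0.0191 to 0.580) were then called higher, and C5ar1 was not called (log2 0.93, adjusted p = 0.0505; 0.00352 to 0.0653, and 0.190 with the values as deposited). C3ar1 was higher under LPS in 4 of 4 pairs of the same number. With miR-29a the block called 35.3% of genes. It called C1qc lower under LPS (log2 -0.43, adjusted p = 0.0424; 0.0424 to 0.529), in 4 of 4 pairs, and C5ar1 higher (log2 0.82, adjusted p = 0.0425; 0.0176 to 0.172).

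The other complement genes were read from a list of 50, of which 49 had a row and 14 to 16 were expressed enough to be tested in a comparison. Under LPS more of them were called lower than higher. In the miR-146a arm 0 were higher and 4 lower, where 2.47% of all genes were called higher and 1.27% lower. In the scramble arm it was 2 and 5 (9.15% and 8.04% of all genes), in the miR-29a arm 2 and 6 (12.8% and 12.8%), and in the miR-7a arm 1 and 4 (2.67% and 3.69%). The median log2 difference over the list genes tested was 0.14 for miR-146a, -0.17 for scramble, -0.16 for miR-29a and -0.03 for miR-7a. In the same order it was -0.02, 0.01, -0.00 and 0.03 over all genes tested, and 0.68, 0.74, -0.02 and 0.74 over those of the 9 that were tested.

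Itgax, a subunit of complement receptor 4, fell in all 4 arms, by log2 -1.84 ± 0.24 with scramble (adjusted p = 0.000777), -2.24 ± 0.22 with miR-29a (0.000104), -1.31 ± 0.19 with miR-7a (0.00295) and -1.40 ± 0.15 with miR-146a (0.000942). Cd93, a surface protein once described as a C1q receptor, fell by log2 -2.34 ± 0.21 with scramble (adjusted p = 0.000138) and -2.26 ± 0.28 with miR-29a (0.000372). It also fell with miR-146a (-1.26 ± 0.18, 0.00386) and was not called with miR-7a (-0.54 ± 0.25, 0.261). Fcna, a ficolin that starts the lectin pathway, fell by log2 -1.55 ± 0.21 with scramble (adjusted p = 0.00114). It was also called lower with miR-29a (0.000804) and miR-7a (0.0291) but not with miR-146a (0.0587). Colec12, a scavenger receptor of the collectin family, fell in all 4 arms. Its log2 differences were -0.86 ± 0.11 with miR-146a (adjusted p = 0.0025), -0.88 with scramble (0.00119), -0.93 with miR-29a (0.000729) and -0.75 with miR-7a (0.00575). On the higher side, C1ra, a protease of the C1 complex, rose by log2 1.88 ± 0.29 with miR-7a (adjusted p = 0.00414). It was also called higher with scramble (1.41 ± 0.22, 0.002) and miR-29a (1.03 ± 0.24, 0.0113) but not with miR-146a (0.0766). C1ra has the close relative C1rb, which was at most 1.07 CPM.

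In the comparisons of a mimic with scramble, 3 of 47 gene and comparison pairs tested, of 54 possible, were called, all with miR-7a and all higher. Over all genes, 1.71% of the tests in these comparisons were called. With the number as a block 10 pairs of the 9 genes were called, and with DESeq2 6. Calls over all genes rose as well, from 1267 in the main fit to 3743 with the block and 4067 with DESeq2.

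With miR-7a under vehicle, C3 rose. Its 4 libraries, at 625 to 919 CPM, all lay above the 138 to 310.0 CPM of VEH_scramble, a 3.56-fold difference (log2 1.83 ± 0.26, adjusted p = 0.0477). Only 0.0358% of all genes tested were called higher there. The call was lost without VEH_scramble replicate 2, 3 or 4 (adjusted p = 0.0562, 0.123 and 0.0912), without VEH_miR-7a replicate 2, 3 or 4 (0.243, 0.134 and 0.112), and with edgeR's quasi-likelihood test (log2 1.76, adjusted p = 0.0725), while in these 7 fits the log2 value ran from 1.64 to 1.95. The structural RNA share was 9.41 ± 2.10% with scramble and 28.04 ± 16.1% with miR-7a (SD over 4 libraries each; exact permutation test, two-sided p = 0.143, where 0.0286 is the smallest possible). With the replicate number as a block the call was kept (log2 1.82, adjusted p = 0.00192, limma), although the numbers were not taken to pair libraries there. Without the 3 libraries rich in structural RNA the log2 difference of C3 was 2.13. That fit leaves VEH_miR-7a without replicates, so it cannot test the call. C1qb, at 147, 123, 138 and 104 CPM, also lay above all VEH_scramble libraries, without passing the test (log2 0.46 ± 0.16, adjusted p = 0.299).

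With miR-7a under LPS, C3 and Cfp rose. C3, at 1893 to 2442 CPM, lay above the 1014 to 1330.0 CPM of LPS_scramble by 1.83-fold (log2 0.87 ± 0.13, adjusted p = 0.0118; 1.42% of genes were called higher). Without LPS_scramble replicate 3 the adjusted p was 0.0512, the highest of the alternatives on restored values (lowest 1.98e-07), and with the values as deposited it was 0.811. Cfp stood at 8.98, 8.42, 8.15 and 6.46 CPM against 3.37, 2.94, 4.61 and 4.33, a 2.04-fold rise without overlap (log2 1.03 ± 0.21, adjusted p = 0.0323). Cfp lost its call in 7 of 8 leave-one-out fits. Adjusted p was 0.0726, 0.0680, 0.0690 and 0.0988 without LPS_scramble replicates 1 to 4. Without LPS_miR-7a replicates 1 to 3 it was 0.0572, 0.0916 and 0.0990. With the number as a block, C3 (log2 0.87, adjusted p = 0.000937) and Cfp (log2 0.98, adjusted p = 0.0438) kept their calls. Cfb (130.2 to 161 CPM against 89.3 to 127) and C5ar1 (15.4 to 20.4 against 8.84 to 15.1) lay above scramble without overlap and short of the test, with log2 differences of 0.48 ± 0.13 (adjusted p = 0.0871) and 0.64 ± 0.19 (0.109). The fit with the number as a block, which called 7.6% of genes, called both, Cfb at log2 0.49 (adjusted p = 0.0176; 0.0176 to 0.258 over the alternatives) and C5ar1 at 0.63 (0.0459; 0.0459 to 0.328). It also called C3ar1 lower, at log2 -0.53 (adjusted p = 0.0167; 0.0167 to 0.681). The C3ar1 libraries stood at 98.2, 98.2, 176 and 200.4 CPM with miR-7a and at 151, 136, 305 and 247 with scramble, lower in 4 of 4 pairs of the same number while the groups overlapped.

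**Figure D4:**
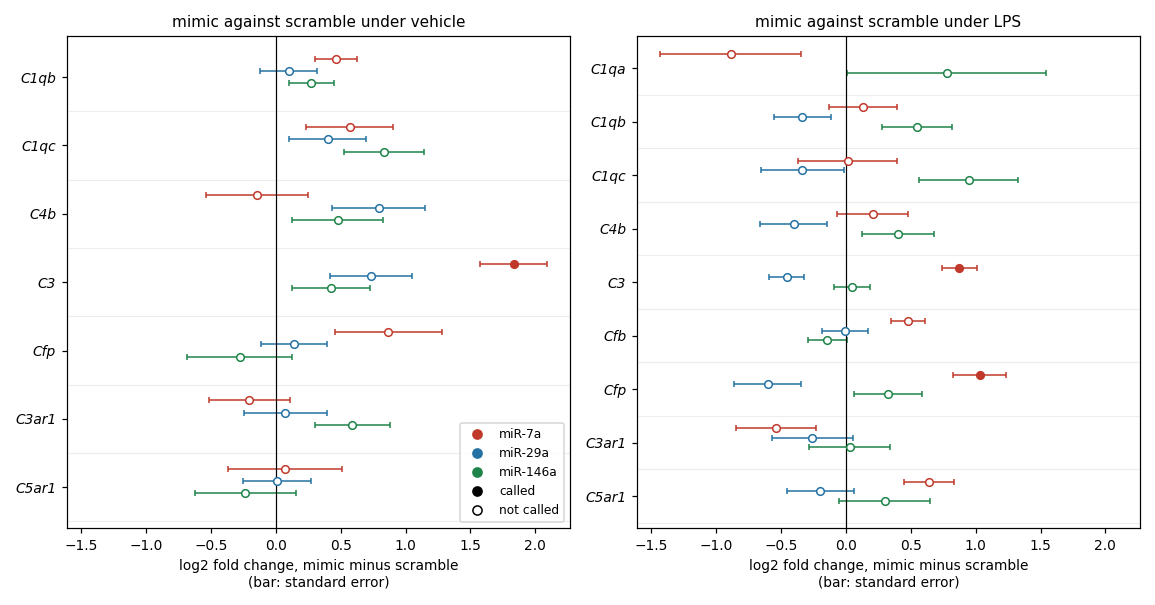
Log2 fold change of each mimic minus scramble for the complement genes under vehicle (left) and LPS (right), points with bars of 1 SE, 4 libraries per group and the same scramble libraries for the 3 mimics of a condition. Filled points passed the test. C3 with miR-7a is filled in both conditions and Cfp with miR-7a under LPS.

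With miR-29a no complement gene of the 9 was called by the main limma fit, under vehicle (where 0.0256% of all genes were called in either direction) or under LPS (4.39%). Under LPS, C3 lay below scramble without overlap, at 773 to 972 against 1014 to 1330.0 CPM (log2 -0.46 ± 0.13, adjusted p = 0.0802). C3 was called lower there by limma with no filter on low counts (log2 -0.49, adjusted p = 0.0295) and by DESeq2 (log2 -0.48, adjusted p = 0.0127). The fit with the block, which called 8.25% of genes, called C3 (log2 -0.46, adjusted p = 0.0146; 0.0127 to 0.256 over the alternatives) and C4b (log2 -0.40, adjusted p = 0.0203; 0.0203 to 0.701) lower. C5ar1, with its match to the miR-29a seed, differed from scramble by log2 0.01 ± 0.26 under vehicle and -0.20 ± 0.26 under LPS. Under vehicle, C3 was at 212 to 483 CPM against 138 to 310.0 (log2 0.73 ± 0.32, adjusted p = 0.460), so that its sign differed between the conditions.

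With miR-146a no complement gene of the 9 was called by the main limma fit either, with 1.18% of all genes called under vehicle and 1.84% under LPS. DESeq2 called C1qc higher under vehicle (log2 0.93, adjusted p = 0.0299; 0.0299 to 0.321 over the alternatives). The fit with the number as a block called C1qb and C1qc higher under LPS. C1qb was at log2 0.48 (limma, adjusted p = 0.0224, range 0.0224 to 0.648 over the alternatives). C1qc was at 0.75 (0.00558, range 0.00558 to 0.533). In that comparison 4 of 4 same-number pairs correlated best with their own number. The lowest correlation was 0.0696, under the cut of 0.1, so the numbers were not taken to pair libraries. That cut does not show them to be unrelated. C1qb and C1qc were higher with miR-146a in 4 of 4 same-number pairs, under vehicle as under LPS. Of the members tested, C1qc had the largest difference in both, at 91.0, 78.4, 44.0 and 39.01 CPM against 36.6, 33.8, 41.1 and 20.6 under vehicle (log2 0.84 ± 0.31, adjusted p = 0.134) and at 103, 51.4, 109.7 and 48.1 against 68.5, 29.5, 66.7 and 25.3 under LPS (log2 0.95 ± 0.38, adjusted p = 0.238). C3ar1, with its match to the miR-146a seed, differed from scramble by log2 0.59 ± 0.29 under vehicle (adjusted p = 0.230), towards higher values, and by 0.03 ± 0.31 under LPS. C3 differed by log2 0.43 ± 0.30 and 0.05 ± 0.14.

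Among the other complement genes, no mimic gave a call under vehicle, nor did miR-7a under LPS. With miR-29a under LPS 3 of 16 tested were lower, namely Itgax (log2 -1.61, adjusted p = 0.00457), Colec12 (-0.57, 0.0173) and Itgb2, the shared beta subunit of complement receptors 3 and 4 (-0.67, 0.0284). Over all genes tested 320 of 13352 were called lower there. With miR-146a under LPS 2 of 14 tested were higher, Cd93 (log2 1.07, adjusted p = 0.0343) and Itgax (0.90, 0.0479), where 86 of 12695 genes were called higher.

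Whether a mimic altered the response to LPS was tested as an interaction over 16 libraries. No complement gene of the 9 was called in 24 tests of 27 possible (limma voom), and edgeR and DESeq2 gave 0 calls as well. Of the 24 tests 3 had an unadjusted p under 0.05 (limma voom), as had 2915 of 37115 tests over all genes. Over all genes 0.0242% were called with miR-146a, 0.0322% with miR-29a and 0.0163% with miR-7a. The smaller rise of C3 with miR-7a than with scramble was a difference of log2 -0.98 ± 0.30 (adjusted p = 0.494), and that with miR-29a of -1.19 ± 0.37 (adjusted p = 0.499). C4b with miR-29a differed by -1.20 ± 0.48 (adjusted p = 0.642). A smaller or larger LPS response with a mimic was therefore not shown for any of the 9.

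The genes with the pattern most like each member over the 32 libraries were named by Pearson's r of log2 CPM over 12389 genes. This is a description, since the libraries span vehicle and LPS and differ in depth. Group means were not removed, so r includes any shared step from vehicle to LPS. C1qb and C1qc were most like each other (r = 0.857), followed for C1qb by Acp2 (0.609) and Hexim1 (0.607) and for C1qc by Ctse (0.669) and Plcl2 (0.668), while C1qc counts ran from 17.1 to 66.8 per 100 C1qb counts (median 40.4). Cfb was most like Lcn2 (0.969), Gbp2 (0.953) and Clec4e (0.949), and C3 like Slc6a12 (0.905), Ly9 (0.895) and Acp5 (0.893). C4b came nearest to Siglec1 (0.783), D17Wsu92e (0.761) and Tanc1 (0.745), and Cfp to Siglec15 (0.754), Il1r2 (0.753) and Ttc7b (0.752). Of the receptors, C3ar1 came nearest to Tpm4 (0.911), Tcf4 (0.864) and Ik (0.859), and C5ar1 to Slfn5 (0.7998), Plscr1 (0.794) and Ms4a4c (0.790). C1qa was too low to be compared.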

How the data were processed

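RNA was sequenced from 32 libraries of BV-2 cells in 8 groups of 4. The authors depleted ribosomal RNA, prepared CORALL total RNA libraries and ran the nf-core rnaseq workflow (version 3.0) on GRCm38; the quantifier and its use of strand are not given in the sources used here. The deposited values are estimated counts that had lost their decimal marks, which is seen in whole numbers whose totals are far too large. Marks were restored by a model of the digits and of the level of the gene in like libraries; values with a posterior under 0.9 (1.11% of 590874 values above 0) took their gene out of that comparison. Of the 288 values of the 9 genes, 48 were read with decimals and 284 had a posterior of at least 0.99. The value under 0.9 (Cfb in replicate 2 of VEH_miR-146a, 19 counts) was kept because the genes sharing its reads held no fraction there. All 44 fractional values of Cfb and C4b became whole when summed with some decimal reading of Gm20547, C2 or C4a (tolerance 0.0025). Values already that close to a whole number, such as 278.001 for Cfb in replicate 4 of LPS_miR-146a, pass this check whatever the partners hold. Every value column was matched to a sample (0 left over).

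Pairs of groups were fitted with limma 3.58.1 (voom) after edgeR 4.0.16 filterByExpr and TMM in R 4.3.3, 8 libraries each and 16 for interactions. DESeq2 1.42.0 and edgeR's quasi-likelihood test on rounded values were alternatives, as were the replicate number as a block, RLE scaling, no filter, 1 fit for all libraries, a posterior of 0.99, the values as deposited, structural RNA left out and each library left out. CPM shown use TMM over all 32 libraries. The script was tested on simulated data. Library totals of 1234700 to 22277000 counts limit the precision of low genes: C1qa and Cfb under vehicle often rest on 3 counts or fewer.

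The study describes independent experiments; where libraries were not separate cultures, p-values measure only the spread between these samples. Replicate numbers were taken to pair libraries where all 4 same-number pairs correlated above 0.1 in their deviations from the group means. This held for LPS against vehicle with scramble (0.168 to 0.218) and with miR-29a (0.132 to 0.253), and under LPS for miR-7a (0.157 to 0.350) and miR-29a (0.245 to 0.468) against scramble. All 9 members were named, of the other complement genes the 3 called with the smallest adjusted p in a comparison (some of the results under this rule are not reported here), and for likeness the genes with the highest r. The members and lists were chosen with earlier results of these data known.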

Additional observations from a re-analysis of the deposited data

Results flagged for a closer look

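On the scale of log2(CPM + 0.5), in each group of 4 libraries, the gap of the highest or lowest library to its neighbour was divided by the group's range, and a ratio above Dixon's 95% critical value for 4 samples marked a library that stood apart. Of 72 gene and group sets, 3 were marked, and chance marks about 5% of sets. C4b in VEH_miR-29a replicate 2, the highest of its group at 181 CPM, had a ratio of 0.862. Cfp in VEH_miR-146a replicate 4, the highest at 12.2 CPM, had 0.882. C5ar1 in VEH_scramble replicate 1, the lowest at 3.82 CPM, had 0.840. For C5ar1 that library lies on the far side from the LPS libraries, and without it the LPS difference with scramble was log2 0.80 with an adjusted p of 0.0646 by limma. The cause of the 3 values was not tested.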

How the results depend on the processing

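The number of calls for the 9 genes was 12 for LPS against vehicle, 3 for mimic against scramble and 0 for the interactions, and 6492, 1267 and 9 over all genes. With each library left out in turn these ran from 10 to 14, from 1 to 3 and from 0 to 0, and over all genes from 5409 to 7168, from 358 to 2203 and from 7 to 151. The single mimic call was left without LPS_scramble replicate 3. Of 1016 member values with a library left out, 981 kept direction and call, 30 lost the call, 5 gained one and 0 reversed.

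With the replicate block, mimic calls rose to 10 for the 9 genes and 3743 over all genes, and interaction calls over all genes to 30. In comparisons where the numbers were not taken as pairing libraries, the block called C4b with miR-146a (LPS against vehicle, adjusted p = 0.0295, limma; 0.00978 to 0.287 over the alternatives) and, for miR-146a under LPS, C1qb (0.0224; 0.0224 to 0.648) and C1qc (0.00558; 0.00558 to 0.533); over all comparisons 33 of 40 same-number pairs correlated best with their own number (correlations -0.0160 to 0.468). In no other comparison than those named here and in the report did the block change a call. DESeq2 gave 6 mimic calls for the 9 genes, 4067 over all genes and 159 interaction calls. Without a filter on low counts, LPS calls over all genes were 12123 and interaction calls 19. With 1 fit over all libraries there were 3351 mimic and 36 interaction calls over all genes, and with a posterior of at least 0.99 there were 4 interaction calls. Taken as deposited, without restored marks, the values gave 3 LPS and 0 mimic calls for the 9 genes, and 638, 183 and 81 calls over all genes; C3 with miR-146a then reversed to log2 -0.29, which the misplaced decimal marks make by construction. The causes of the other changes were not tested. RLE scaling, 1 set of library sizes in the restoration, structural RNA left out and the adjusted p alone changed no call of the 9 genes.

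Alternatives were also added after seeing the data. With the posteriors of the restoration alone, LPS calls for the 9 genes were 11. Leaving out the 3 VEH_miR-7a libraries above 30% structural RNA left that group without replicates, so calls of those fits are not counted here. Depth limits C1qa throughout and Cfb, Cfp and C5ar1 under vehicle, where a few counts set the value.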
